A study of Rattus norvegicus with 141 samples.

Results

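Duodenum libraries differ in how much RNA of mature enterocytes they hold, and the 12 libraries with the most were set against the 12 with the least. Libraries were selected on measured expression, the mean of log2(CPM + 1) of Alpi, Fabp2 and Si, where CPM (the count scaled by the library's own total to a common total) is the unit of level throughout. This mean is called the enterocyte score below. Si, the symbol used for rats, is sucrase-isomaltase, also written Sis. Of 47 duodenum libraries, 46 were ranked: 12 formed the rich set, 12 the poor set and 22 lay between them. The whole series holds 141 libraries of liver, stomach and duodenum.

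The animals were male and female Sprague-Dawley rats, adult, wild type and on standard chow. They had vehicle (control) or microplastics at 5 mg/kg (low dose) or 50 mg/kg (high dose). Polymer, route and duration are not stated in the labels. Among the ranked libraries, 7 were male controls and 7 female controls, and each sex had 8 libraries at the low and 8 at the high dose. Polyadenylated RNA came from several frozen pieces of each tissue that were pulverized together, and the labels name 3 batches without saying what a batch was. Nothing in the labels ties libraries to separate animals, so p-values measure the spread between these libraries. The values are estimated counts per gene, and totals of the ranked libraries ran from 5470040 to 25503800, rounded to 6 digits. Rich and poor libraries had similar numbers of detected genes, with medians of 18475 and 18430.

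The library labelled male control replicate 1 was left out by the rule. It held Fabp6, the bile acid binding protein of the ileum, at 3520 CPM, against at most 4.48 CPM in the 46 ranked libraries. Gata4, a transcription factor of the proximal small intestine, was at 0.294 CPM there and at least 73.5 CPM in each ranked library. Pdx1, a duodenal transcription factor, was at 0 in it and at least 33.9 CPM elsewhere. All 46 ranked libraries thus held Gata4 and Pdx1 transcripts, as their tissue label says.

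The small intestinal lining renews itself from stem cells in the crypts. Their progeny divide, leave the cycle, move up the villus as enterocytes and are shed at its tip. Mature enterocytes carry a brush border of microvilli with enzymes that finish digestion and transporters that take up sugars, peptides, amino acids, vitamins and minerals. They also package dietary fat into chylomicrons. In rodents the transcription factors HNF4, GATA4, CDX2 and HNF1 take part in switching on these genes. In a bulk library, fewer cells of a type and less RNA per cell cannot be told apart.

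Scores of the rich set ran from 10.2 to 11.1 with a median of 10.5, and those of the poor set from 7.89 to 9.23 with a median of 8.90. The middle libraries filled the range between without a break. Just inside the upper bound, female high-dose replicate 7 had a score of 10.156, and just outside it female high-dose replicate 6 had 10.150. At the lower bound male control replicate 2 was the highest of the poor set at 9.23, and female low-dose replicate 5 the lowest of the middle at 9.31. The sets are thus the ends of a continuous range.

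**Figure D1:**
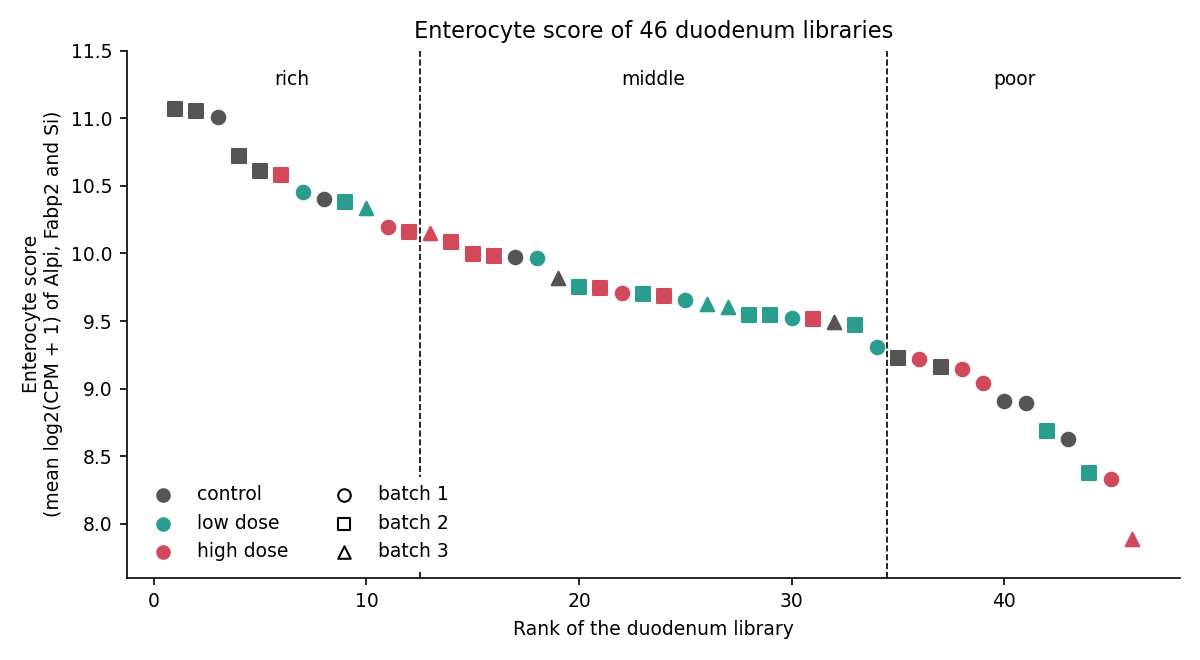
Enterocyte score (vertical axis, mean log2(CPM + 1) of Alpi, Fabp2 and Si) of 46 duodenum libraries against their rank. Colour gives the dose group, shape the batch, and dashed lines bound the 12 rich and the 12 poor libraries; controls hold the top 5 ranks and also lie among the poor.

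The 3 genes of the score are given as a description, because they chose the sets. Fabp2, which carries fatty acids inside enterocytes, was at 478 to 2087 CPM (median 1032) in the rich and at 114 to 265 CPM (median 225) in the poor libraries. The sets did not overlap in Fabp2. Alpi, the brush border alkaline phosphatase, was at 683 to 1997 CPM (median 1334) in the rich and 174 to 759 CPM (median 435) in the poor libraries. Si, which splits sucrose and isomaltose, was at 1716 to 3817 CPM (median 2787) against 662 to 2210 CPM (median 1133). Alpi and Si overlapped between the sets. Akp3, a duplicate of Alpi in rodents, had medians of 1940 and 170 CPM, and reads of such similar genes may have been shared between them.

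The bases before the start of these genes are shown because the 3 genes make up the score. Those of Ephb4 and Cdca7, 2 genes that were lower in the rich libraries and were chosen after their values were seen, are shown for contrast. Each run is the 250 bases before the annotated start, read 5′ to 3′ on the gene's strand, from RefSeq on build GRCr8. They lie at chr9:95224781-95225030, minus strand (Alpi), chr2:213724379-213724628, plus strand (Fabp2), chr2:159884903-159885152, minus strand (Si), chr12:24988389-24988638, minus strand (Ephb4), and chr3:77730065-77730314, plus strand (Cdca7). Capitals mark letters searched for on both strands. They were GTTAATNAT for HNF1, CAAAGTCCA for HNF4, AGATAA and TGATAA for GATA factors, TTTATG and TTTATT for CDX2, and TATAAA for a TATA box.
Alpi: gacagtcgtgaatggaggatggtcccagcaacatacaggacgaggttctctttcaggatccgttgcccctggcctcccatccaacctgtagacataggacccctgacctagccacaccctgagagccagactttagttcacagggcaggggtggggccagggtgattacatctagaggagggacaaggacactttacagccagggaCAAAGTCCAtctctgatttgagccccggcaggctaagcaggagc
Fabp2: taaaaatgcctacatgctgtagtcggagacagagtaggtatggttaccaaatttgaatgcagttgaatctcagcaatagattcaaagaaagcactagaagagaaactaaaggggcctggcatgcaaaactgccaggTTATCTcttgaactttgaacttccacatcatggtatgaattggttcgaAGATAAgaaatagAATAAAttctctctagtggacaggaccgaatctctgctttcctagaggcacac
Si: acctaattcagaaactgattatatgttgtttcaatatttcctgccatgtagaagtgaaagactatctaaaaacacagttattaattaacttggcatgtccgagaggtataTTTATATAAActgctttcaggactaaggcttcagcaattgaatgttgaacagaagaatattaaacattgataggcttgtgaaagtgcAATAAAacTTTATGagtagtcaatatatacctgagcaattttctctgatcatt
Ephb4: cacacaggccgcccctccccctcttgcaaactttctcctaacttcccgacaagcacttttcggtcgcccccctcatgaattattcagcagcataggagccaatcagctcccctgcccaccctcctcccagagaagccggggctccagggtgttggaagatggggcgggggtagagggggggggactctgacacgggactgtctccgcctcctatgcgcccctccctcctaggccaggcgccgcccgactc
Cdca7: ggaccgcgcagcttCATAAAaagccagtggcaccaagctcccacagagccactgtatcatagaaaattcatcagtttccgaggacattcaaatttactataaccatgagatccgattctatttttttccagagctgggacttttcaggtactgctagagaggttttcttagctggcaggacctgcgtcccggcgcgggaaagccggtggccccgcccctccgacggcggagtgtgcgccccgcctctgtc
Alpi held the HNF4 letters, which start 44 bases before its start and occur in 0.338% of 33469 such windows. Fabp2 held AGATAA on both strands, 114 and 66 bases before its start, and letters for CDX2. GATA letters occur in 16.9% of all windows. Si held letters for CDX2 at 2 places, 53 and 45 bases before its start, found in 27.1% of all windows. It also held TATAAA on both strands over overlapping bases, 140 and 136 bases before its start, found in 12.9%. Cdca7 held only 1 match, for CDX2, and Ephb4 none. HNF1 letters, found in 0.666% of windows, were in none of the 5. A match describes letters and shows no binding. The windows of Alpi, Fabp2 and Si held 4, 3 and 1 CpG pairs, and those of Ephb4 and Cdca7 held 12 and 15. The median of all 33469 windows was 5.

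Across 15164 genes, expression was compared as mean log2 CPM scaled by TMM, a method that sets a library's size by the bulk of its genes. No test is given, because the same libraries chose the sets. In the rich set 448 genes (2.95%) were at least 2-fold higher and 32 (0.211%) at least 2-fold lower. The ranges of the sets did not overlap for 385 genes with the rich set above (2.54%) and for 28 with the rich set below (0.185%). The median of all genes was -0.07 on the log2 scale, and -0.24 when CPM was left unscaled, so values near these medians mean no difference. By sign alone, 6153 of the 15164 genes were higher and 9011 lower in the rich set. Among genes at least 2-fold higher, 443 of 448 were higher inside batch 1 and inside batch 2. Of those at least 2-fold lower, only 15 of 32 had a symbol, against 437 of 448 higher.

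The 22 middle libraries belong to neither set and give a further description of the same genes. Without the 3 score genes, 411 of 445 genes that were at least 2-fold higher (92.4%) had a positive slope on the score there, against 47.4% of all genes. Their median slope was 0.76 log2 units per unit of score. For genes at least 2-fold lower, 21 of 32 (65.6%) had a negative slope. The middle libraries share the score genes with the ranking.

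The widest difference was in Apoa4, an apolipoprotein of chylomicrons, with 1305 to 5851 CPM (median 2912) in the rich and 43.5 to 326 CPM (median 103) in the poor libraries. The difference of mean log2 CPM was 5.03 (SD 0.76 in the rich and 0.87 in the poor set, n = 12 each). Every rich library lay above every poor one, and the middle libraries spanned 178 to 1752 CPM. Slc5a12, a sodium-coupled monocarboxylate transporter, differed by 4.26, but its poor median was 0.098 CPM, near the detection limit. Cubn, the receptor that takes up vitamin B12 bound to intrinsic factor, was at 2.53 to 33.9 CPM in the rich and 0.361 to 1.11 CPM in the poor set. Its partner Amn had medians of 21.1 and 3.07 CPM.

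Other genes of the 10 highest by the naming rule were Ifit1bl, of the interferon-induced IFIT family (difference 4.01), Bmp8b, a growth factor of the BMP family (3.80), and Pck1, the gluconeogenic enzyme PEPCK (3.72). Pck1 was at a median of 129 CPM in the rich and 9.82 CPM in the poor libraries. Cldn4, a tight junction claudin, was at 14.7 to 162 CPM against 3.77 to 8.91 CPM (3.60). The sets did not overlap in any of these. AABR07073400.1, AABR07032856.1 and AABR07057436.1 complete the 10, with differences of 4.52, 4.30 and 3.64.

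**Figure D2:**
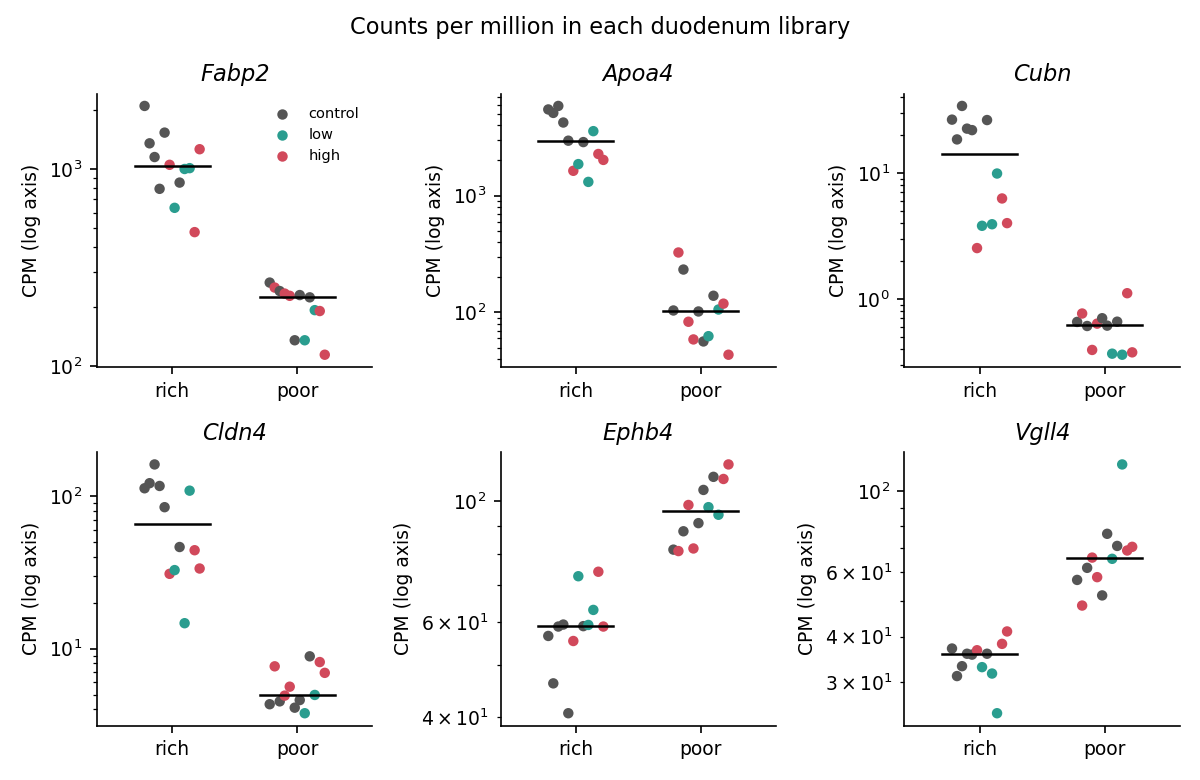
CPM (log axis) in each rich and poor duodenum library for 6 genes, coloured by dose group, with black bars at the medians. Fabp2, Apoa4, Cubn and Cldn4 are higher in the rich libraries, and Ephb4 and Vgll4 lower; the lower genes differ far less, with medians of 58.9 against 96.1 CPM for Ephb4.

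Brush border hydrolases, which finish the digestion of sugars and peptides, were higher in the rich set for 17 of 17 measured members, with a median difference of 2.10. For 14 of them it was at least 2-fold. Tmprss15, enteropeptidase, which activates trypsinogen, was at 142 to 502 CPM (median 399) in the rich and 19.8 to 101 CPM (median 46.4) in the poor libraries, with no overlap. Ggt1, which begins the breakdown of glutathione, had medians of 69.9 and 6.04 CPM and a difference of 3.52. Lct, lactase, overlapped, at 312 to 1062 CPM against 46.1 to 366 CPM.

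Of the genes of lipid absorption and lipoprotein assembly, 19 of 20 were higher in the rich set, with a median of 1.08, and 11 at least 2-fold. Apoa1, the main protein of high-density lipoprotein, was at 4338 to 12700 CPM in the rich and 566 to 1643 CPM in the poor libraries. Apob, the structural protein of chylomicrons, had medians of 3913 and 757 CPM, and Fabp1, another carrier of fatty acids, 2101 and 538 CPM. The sets did not overlap for any of these 3. The apolipoproteins thus spanned a wide range of differences, from 2.46 for Apoc3 to 5.03 for Apoa4.

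Transporters of sugars, peptides and amino acids were higher for 12 of 13 members, with a median of 1.24. Slc2a2, the basolateral glucose transporter, had medians of 296 and 112 CPM and did not overlap. Slc15a1, the peptide transporter, and Slc5a1, the sodium-glucose cotransporter, overlapped, with differences of 1.34 and 1.26.

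All 17 members for vitamins, minerals and bile acids were higher, with a median of 1.5. Trpv6, the calcium channel of the brush border, differed by 3.13 (12.6 to 82.4 against 2.42 to 13.2 CPM), and S100g, the calcium carrier calbindin-D9k, by 2.55 (medians 3228 and 532 CPM). Slc46a1, the folate transporter, had medians of 47.2 and 9.90 CPM. The drug and steroid metabolism list had 11 of 14 members higher, with a median of 1.51. Cyp1a1, the enzyme induced through the aryl hydrocarbon receptor, varied widely inside the rich set, from 2.72 to 142 CPM, and was at 1.02 to 6.49 CPM in the poor set. Cyp3a9, a steroid and drug hydroxylase, had medians of 323 and 57.8 CPM without overlap.

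Structural genes of the brush border differed less, with a median of 1.04 over 17 members, all higher. The microvillar cadherins Cdhr2 and Cdhr5 had medians of 749 against 238 CPM and 729 against 296 CPM. Genes known from mouse to be highest at the villus tip were higher for all 10 members, with a median of 1.09. Ada, adenosine deaminase, was at 456 to 1614 CPM in the rich and 104 to 255 CPM in the poor libraries. Slc28a2, a nucleoside transporter, had medians of 106 and 19.1 CPM. PPAR alpha targets, which serve fat oxidation, were higher for 11 of 11 members with a median of 0.75, and Pdk4, a brake on glucose oxidation, had medians of 42.2 and 17.8 CPM.

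The transcription factors of the intestine differed little, with a median of 0.20 over 19 members. Hnf4g differed by 1.02 (medians 372 and 194 CPM) and Maf, a factor of enterocyte maturation in mouse, by 1.01. Hnf4a, Cdx2 and Gata4 differed by 0.13, 0.00 and -0.03. General epithelial genes had a median of 0.20, with Epcam, an adhesion protein of all gut epithelial cells, at 1032 to 1636 CPM in the rich and 950 to 1456 CPM in the poor libraries. Apart from Cldn4, none of the 15 general epithelial members was 2-fold higher.

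**Figure D3:**
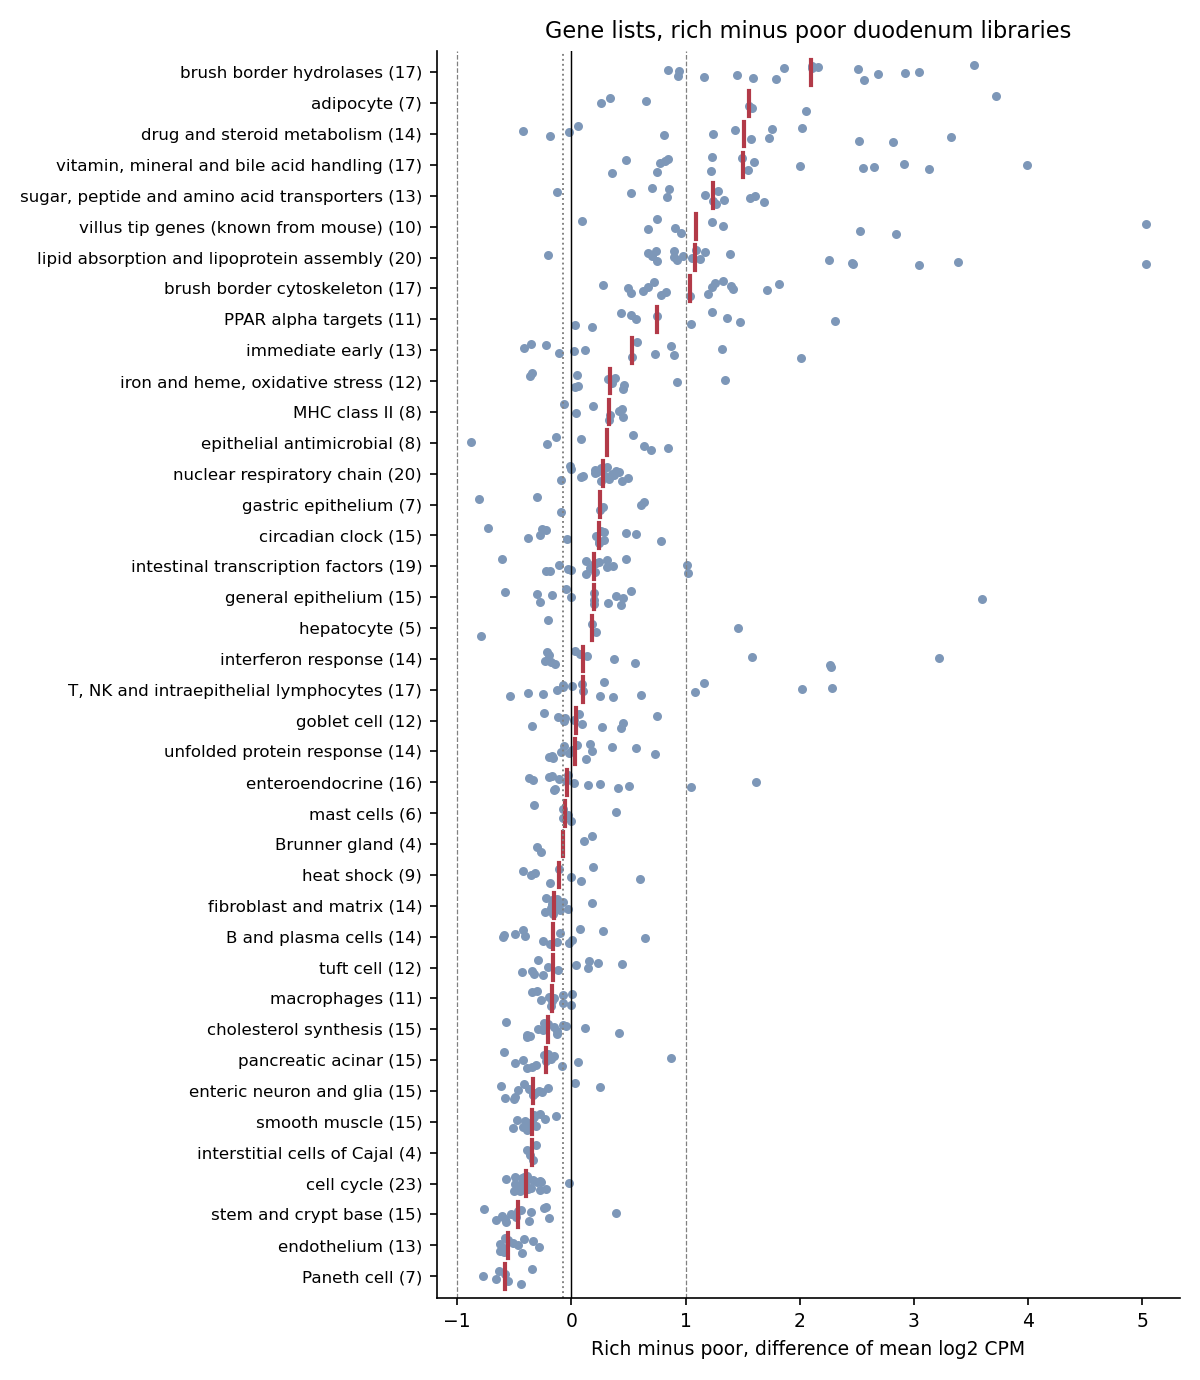
Rich minus poor difference of mean log2 CPM (horizontal axis) for the measured members of 40 gene lists, 1 point a gene, with the number of genes in brackets and a red bar at each list's median. The dotted line is the median of all genes and the dashed lines mark a 2-fold difference; hydrolases have the highest median (2.10), and Paneth cell genes the lowest (-0.58).

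Genes of the crypt lay on the other side, by smaller differences. The stem and crypt base list had a median of -0.47, with 14 of 15 members lower in the rich set. Lgr5, the stem cell receptor, was at 3.16 to 8.50 CPM in the rich and 6.32 to 12.8 CPM in the poor libraries, and Ephb3, a receptor that keeps cells in the crypt, had medians of 15.3 and 33.3 CPM. All 23 cell cycle genes were lower, with a median of -0.40. Beside both lists, 9011 of all 15164 genes were lower. Top2a, a topoisomerase of dividing cells, was at 76.6 to 145 CPM in the rich and 158 to 217 CPM in the poor libraries. Only the stated CPM ranges of Top2a were separate; after scaling they overlapped. In the middle libraries 2 of 15 crypt base genes had a positive slope on the score, beside 7188 of all 15164 genes (47.4%). Of cell cycle genes 10 of 23 had one, near the share of all genes. All 7 Paneth cell genes were lower in the rich set, yet all 7 had a positive slope in the middle.

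The 10 lower genes by the naming rule were Vgll4, a cofactor that restrains YAP (difference -0.76), Arhgef39, Xpo5, the exporter of microRNA precursors, Ndc1, a nuclear pore protein, Ephb4, a receptor of the EphB family, and Cdca7, a gene of cycling cells. Nod1, a sensor of bacterial cell walls, Nat10, an RNA acetyltransferase, Nr2f2, an orphan nuclear receptor, and Ybx3, a nucleic acid binding protein, complete them. Vgll4 was at 24.7 to 41.4 CPM in the rich and 48.6 to 118 CPM in the poor libraries. Ephb4 was at 40.7 to 74.2 CPM against 81.0 to 117 CPM, and Cdca7 at 18.6 to 29.2 CPM against 32.1 to 44.5 CPM. None of the 10 was 2-fold lower, and the range was -0.48 to -0.76.

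Markers of some other cell types differed between the sets, and their part in the differences above was not tested. All 15 smooth muscle genes were lower in the rich set (median -0.34), and Myh11, smooth muscle myosin, was at 564 to 2026 CPM in the rich and 1123 to 2603 CPM in the poor libraries. All 13 endothelial genes were lower (median -0.56), as were 13 of 15 genes of enteric neurons and glia (-0.34) and 13 of 14 fibroblast genes (-0.16). Beside these, 9011 of all 15164 genes were lower. The fibroblast median differed little from the median of all genes (-0.07). Goblet, enteroendocrine and tuft cell lists had medians of 0.04, -0.04 and -0.16. Muc2, the goblet cell mucin, had medians of 4056 and 4058 CPM.

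Some lists not named for enterocytes held members that were higher. Among 17 lymphocyte genes, with a median of 0.10, Gzmb and Gzma, granzymes of cytotoxic cells, differed by 2.29 and 2.02, with Gzma at 5.05 to 20.7 CPM against 1.36 to 3.88 CPM. Cd3g, a subunit of the T cell receptor complex, differed by -0.53. Among 14 interferon response genes, with a median of 0.11, Rsad2, Isg15 and Irf7 differed by 3.22, 2.28 and 1.58. Of 13 immediate early genes, with a median of 0.53, 9 were higher and 4 lower in the rich set, and 2 were at least 2-fold higher. Fos, a transcription factor of this list induced within minutes of a stimulus, had medians of 23.6 and 6.94 CPM. The adipocyte list had all 7 measured members higher (median 1.56), among them Adipoq, a hormone of fat cells, at 0.146 to 15.5 CPM in the rich and 0.0938 to 4.97 CPM in the poor set. Pck1, named above, is on this list and was its highest member (3.72). Only 2 of the 7 did not overlap between the sets. The list's median was 1.84 among controls, -0.13 among low-dose and 1.08 among high-dose libraries.

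Pancreatic acinar genes showed no common direction. The median of 15 members was -0.23, but 2.06 inside batch 1 and -2.50 inside batch 2, and Cpa1, a pancreatic carboxypeptidase, ran from 0 to 7727 CPM in the rich and from 0 to 5341 CPM in the poor libraries. Transcripts of the mitochondrial genome took 6.90% to 12.8% of counts (median 9.50%) in the rich and 8.87% to 15.3% (median 12.5%) in the poor libraries. Ribosomal protein genes took medians of 3.78% and 4.54%. These shares overlapped between the sets, and their part in the differences was not tested.

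Dose and batch were spread unevenly over the sets. The rich set held 6 controls, 3 low-dose and 3 high-dose libraries, and the poor set 5 controls, 2 low-dose and 5 high-dose libraries. Only 3 of 14 controls lay in the middle, against 11 of 16 low-dose and 8 of 16 high-dose libraries. Batches 1, 2 and 3 gave 4, 7 and 1 libraries to the rich set and 7, 4 and 1 to the poor set. The rich set had 7 male and 5 female libraries, and the poor set 5 and 7.

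Controls had a mean score of 9.93 ± 0.88 (SD, n = 14). Low-dose libraries had 9.62 ± 0.55 (n = 16) and high-dose libraries 9.59 ± 0.72 (n = 16). Within batch and sex the high dose differed from control by -0.38 (two-sided permutation test, p = 0.203, adjusted p = 0.303 over 4 tests). The value was -0.41 inside batch 1 and -0.34 inside batch 2. The low dose differed by -0.31 (permutation p = 0.279, adjusted p = 0.303), but by 0.16 inside batch 1 and -0.88 inside batch 2. Without female control replicate 6, of the rich set, the low-dose difference was -0.19. With male control replicate 1 kept in, the differences were -0.23 at the high and -0.18 at the low dose. Females differed from males by -0.26 within batch and dose (permutation p = 0.2, adjusted p = 0.303), and the means of batches 1, 2 and 3, at 9.55, 9.87 and 9.56, did not pass either (permutation p = 0.303). The difference of the sexes in the dose effect was -0.39 at the high and -0.31 at the low dose (permutation p = 0.456 and 0.566). None of these passed, and groups overlapped widely.

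The genes that separate the sets were next read in the dose comparisons, which use the same 46 libraries and so are not independent of the ranking. In edgeR's quasi-likelihood test with terms for sex, dose and batch, 991 of 15164 genes (6.54%) rose and 838 (5.53%) fell at the high dose against control, at a Benjamini-Hochberg adjusted p under 0.05. Of the 448 genes at least 2-fold higher in the rich set, 87 (19.4%) fell and 0 rose. Their median change was -0.50 on the log2 scale, -0.58 inside batch 1 and -0.57 inside batch 2. Of the 448, 428 were below 0, beside 7675 of all 15164 genes. Of the 32 genes at least 2-fold lower in the rich set, 2 rose (6.25%), a share near the 6.54% of all genes.

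By list, 6 of 17 brush border cytoskeleton genes fell at the high dose, as did 6 of 10 villus tip genes, 5 of 17 vitamin and mineral genes, and 2 each of 17 hydrolases (11.8%) and 20 lipid genes (10.0%), beside 5.53% of all genes. None of the 13 transporters passed. Lists whose median difference between rich and poor was only 0.20 had members that fell too, 5 of 19 intestinal transcription factors (26.3%) and 4 of 15 general epithelial genes (26.7%). Among rising genes were 7 of 23 cell cycle genes and 5 of 20 nuclear respiratory chain genes, beside 6.54% of all genes. Apob fell by 1.19 ± 0.37 (SE, adjusted p = 0.0353), from 694 to 6780 CPM (median 1660) in controls to 410 to 4020 CPM (median 1100). Cdhr2 fell by 0.837 ± 0.259 (adjusted p = 0.0329) and Ace, the angiotensin-converting enzyme, by 1.18 ± 0.40 (adjusted p = 0.0463). Cubn fell by 2.84 ± 0.67 (adjusted p = 0.0206), with medians of 1.67 CPM in controls and 1.02 CPM at the high dose. The groups overlapped in each of these genes. Of the score genes, Alpi fell by 0.822 ± 0.283 (adjusted p = 0.0488), while Fabp2 (-0.56 ± 0.36, adjusted p = 0.298) and Si (-0.25 ± 0.24, adjusted p = 0.504) did not pass.

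With the score added to the model as a number, 954 genes (6.29%) rose and 558 (3.68%) fell at the high dose, and 1203 genes were called both with and without it. The score was made from 3 of the genes tested. The 448 genes, Apob and Cubn among them, were chosen by the same score in these libraries. That choice builds in a move of their values toward 0 in this model, so nothing is read from it. With the score, 7 of the 448 were called higher and 17 lower. Their median was then -0.07, and Apob was at -0.39 ± 0.16 (adjusted p = 0.0924) and Cubn at -0.87 ± 0.47 (adjusted p = 0.203). Of the genes with the smallest p, Lyz2, lysozyme, rose by 0.87 ± 0.17 (adjusted p = 0.0206) without and by 0.83 ± 0.18 (adjusted p = 0.0269) with the score. Sult4a1, a sulfotransferase, rose by 0.85 ± 0.17 and by 0.81 ± 0.17, with the same adjusted p-values as Lyz2. Paneth cell genes had 3 of 7 members called higher in both fits.

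**Figure D4:**
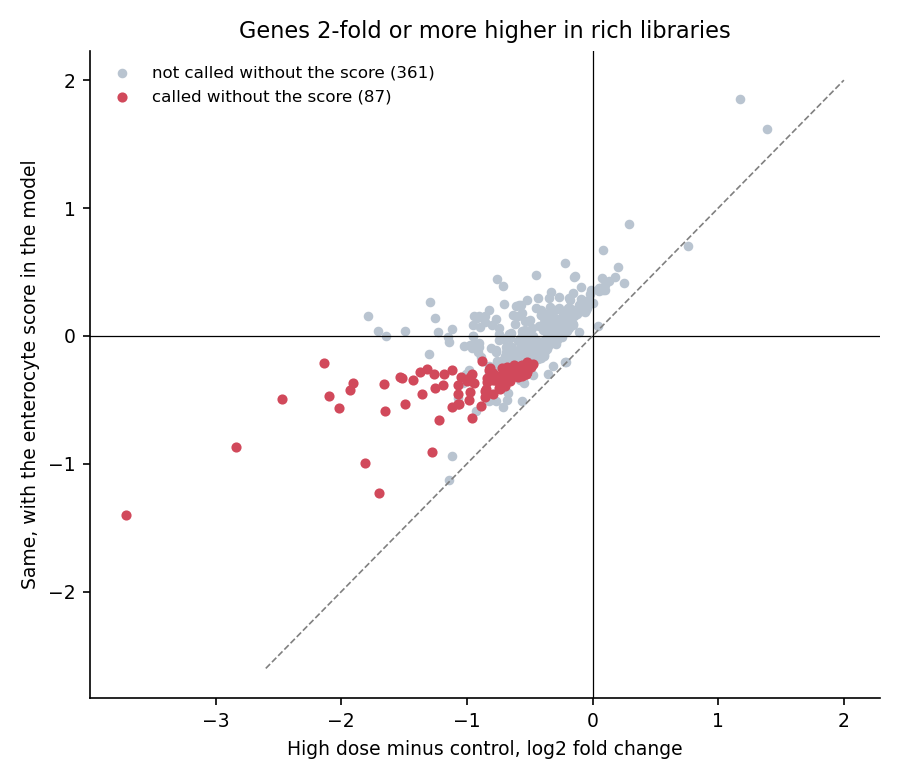
High dose minus control log2 fold change of the 448 genes at least 2-fold higher in the rich set, without (horizontal) and with (vertical) the enterocyte score in the model; red points are the 87 genes called without it. Most points lie left of 0, and their vertical values centre near 0 (median -0.07), away from the dashed line of equal values. The genes were chosen by the same score, which builds in this move toward 0, so nothing is read from it.

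These counts rested on few libraries. Without female control replicate 1, of the rich set, the high-dose calls dropped to 0, although 3816 genes still had an unadjusted p under 0.05, against 4505 in all 46 libraries. Without male high-dose replicates 5, 1 or 2 the counts were 647, 803 and 1144. Without male control replicates 5 or 6 they were 808 and 1171, without female control replicate 6 1079, and without female high-dose replicates 8 or 6 1052 and 1218. Leaving out male high-dose replicate 6, a rich library, raised the count to 3125. Of these 10 libraries, 5 were rich and 3 poor. Inside batch 1 alone 0 genes passed (508 at an unadjusted p under 0.05), and inside batch 2 alone 67.

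At the low dose no gene passed in edgeR (0.0% of 15164 genes, with 1594 at an unadjusted p under 0.05), and DESeq2 called 6. Inside batch 2 alone 193 genes passed, 8 higher and 185 lower, and inside batch 1 alone 0 (187 at an unadjusted p under 0.05). The 448 genes had a median of -0.46, -0.20 inside batch 1 and -0.96 inside batch 2. Apoa4 was at -1.53 ± 0.73 (adjusted p = 0.459) without the score in the model.

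Libraries of stomach and liver took no part in the ranking and were compared with the score of the duodenum library that carries the same number. The labels do not say that a number marks an animal. In duodenum and stomach, same-numbered libraries deviated from their group together, with a median correlation of 0.12 across 14138 genes (46 numbers, -0.23 to 0.37), against -0.02 for other numbers of the same group. The value was over 0.1 for 27 of 46 numbers. For duodenum and liver the medians were 0.06 and -0.02 over 44 numbers. Genes are not independent replicates, so these correlations are a description.

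In stomach 3 of 15204 genes (0.0197%) passed, all higher with a higher score: Pnlip, Prss3b and Prss1, which encode pancreatic lipase and trypsinogens. Pnlip differed by 6.79 ± 1.16 per unit of score (edgeR, adjusted p = 0.00614), Prss3b by 7.66 ± 1.30 (adjusted p = 0.00614) and Prss1 by 6.64 ± 1.21 (adjusted p = 0.0114). The sets nearly all overlapped: Pnlip was at 0 to 1020 CPM (median 0.117) in the 12 stomach libraries with a rich number and at 0 to 0.478 CPM (median 0.0572) in the 12 with a poor number. In the 22 with a middle number it was at 0 to 281 CPM. Pnlip was over 100 CPM in 1 rich and 2 middle libraries and in no poor one. Without female low-dose replicate 7, which held 1020 CPM, or without female low-dose replicate 4, which held 281 CPM, 0 genes passed. Leaving out others gave up to 8. Fabp2 in stomach did not follow the score (0.13 ± 0.18, adjusted p = 0.881).

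In liver no gene passed (0.0% of 13109 genes; 464 at an unadjusted p under 0.05 in edgeR, and 0 calls in DESeq2) over 44 libraries. The genes with the smallest p were Reep4, a protein that shapes the endoplasmic reticulum (-0.30 ± 0.063 per unit of score, adjusted p = 0.304), Unc5a, a netrin receptor (0.56 ± 0.12, adjusted p = 0.311), and Cep76, Cry2 and Dnajb4, each at an adjusted p of 1.0. Fabp2 in liver was at 0.13 ± 0.20 (adjusted p = 1.0).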

How the data were processed

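The deposited tables give expected counts per gene, estimated by the authors and not whole numbers throughout, for 30562 genes in each tissue. The submitters' processing notes name STAR 2.7.11b, Salmon 1.10.3, UMI-tools 1.1.5 and the build mRatBN7.2, but not their roles, the strand setting or the handling of duplicates. Without strand, reads of overlapping genes cannot be told apart.

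Expected counts were rounded to whole numbers. Low genes were removed with filterByExpr (edgeR 4.0.16, R 4.3.3, minimum count 10, total 15). Differences between sets are means of log2 CPM with TMM scaling and a prior count of 2, and sets were called separate on that scale, where their ranges did not overlap. CPM ranges in the text are unscaled. Dose was tested by edgeR's quasi-likelihood fit over 46 libraries with a term for each sex and dose and for batch, averaging the sexes. Stomach and liver fits had the duodenum score as a number beside the same terms. Benjamini-Hochberg adjustment ran over all genes of a fit. Scores were tested by 100000 permutations of dose within batch and sex, of sex within batch and dose, and of batch within sex and dose. Steps were tested on simulated data.

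The members and the 41 gene lists were chosen with earlier results of these data known. Named genes were the 10 higher and 10 lower with a symbol, the widest difference and no overlap, up to 4 members of a list by size of difference, and for dose and other tissues the smallest p; some are left out for brevity, and a few added after their values were seen. A few genes are not reported here. Where rows share a symbol, the one with most counts was used. Alternatives were DESeq2 1.42.0 and its size factors, other filters, set sizes, scores and covariates, batches alone and single libraries left out.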

Additional observations from a re-analysis of the deposited data

Results flagged for a closer look

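The library labelled male control replicate 1, which entered only alternative runs, held transcripts of the distal intestine above the level of the 14 other control libraries of the duodenum. Fabp6 was at 3520 CPM there and Slc10a2, the bile acid transporter of the ileum, at 463 CPM. Its enterocyte score of 8.19 would have put it among the poor libraries.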

How the results depend on the processing

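The count of genes at least 2-fold higher in the rich set stayed within 1.5 times 448 under every alternative run (319 to 593, and 431 to 472 with single libraries left out). The count of lower genes did not: 61 with unscaled CPM, 77 with 8 against 8 and 17 with 16 against 16 libraries, 98 in batch 1, 137 in batch 2 and 54 after adjustment for sex, dose and batch, against 32; single libraries left out gave 29 to 44. The high-dose, low-dose and sex differences of the score passed under no alternative, and the low-dose difference turned to 0.158 in batch 1 alone. With single libraries left out the score differences ran from -0.499 to -0.259 (high dose), -0.416 to -0.192 (low dose) and -0.325 to -0.183 (females minus males). High-dose calls, 1829 in all, numbered 1102 without a filter, 981 without a batch term, 870 without batch 3, 0 in batch 1 alone and 67 in batch 2 alone, and 0 to 3125 with single libraries left out. Low-dose calls numbered 6 by DESeq2, 1 without batch 3 and 193 in batch 2 alone, and 0 to 1 with single libraries left out. Stomach calls numbered 8 by DESeq2, 22 without a filter, 0 with a score without Fabp2, 0 without batch 3, and 0 to 8 with single libraries left out. Liver had 1 call without a filter and 0 with any single library left out. The cause of these moves was not tested. With the replicate number as a block, 1433 genes were called at the high and 0 at the low dose, and the score differed by -0.208 and -0.36. Same-numbered libraries of different groups correlated with a median of 0.017 over 110 pairs, of which 35 were over 0.1. The median was -0.003 over 771 pairs with different numbers. Whether the numbers pair libraries was not tested. Low counts limit genes near the detection floor, such as Slc5a12 in the poor set.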
